A study of Gallus gallus with 6 samples.

Results

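Caveolins and cavins are the coat proteins of caveolae, the small flask-shaped pits of the plasma membrane. Of 7 listed symbols (CAV1, CAV2, CAV3, CAVIN1, CAVIN2, CAVIN3 and CAVIN4), 2 matched a gene name among the 18495 genes of the deposited table: CAV1 and CAV2. Another 2 members of the family stood there under other names and are described with them, a choice made after the table was seen. PTRF is the older symbol of CAVIN1, and its deposited description gives mouse cavin-1 as the best protein match. ENSGALG00010010796 carries no symbol, and its deposited description gives rat cavin-2 as the best match together with the PTRF/SDPR protein family. CAV3 and CAVIN4 were not analysed here, nor was CAVIN3 under its own name.

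RNA came from ICP1 cells, a line of chicken preadipocytes. KLF2 libraries came from 3 wells transfected with pCMV-myc-KLF2, a plasmid that drives KLF2, a zinc-finger transcription factor, from a viral promoter. EV libraries came from 3 wells transfected with the empty pCMV-myc plasmid, and all cells were harvested at 48 h. The labels treat each well as its own replicate, and p-values therefore reflect differences between wells of 1 line. The share of cells that took up plasmid is not given in the labels. The series asks what KLF2 does in preadipocytes, and the comparison made here asks whether transcripts of the caveolar coat differed between KLF2 and EV libraries.

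Caveolae are especially dense in fat cells, endothelium and muscle. Caveolin-1 inserts into the inner leaflet of the membrane, binds cholesterol and forms oligomers, and caveolin-2 reaches caveolae mainly in complexes with it. Cavin-1 coats the cytosolic face and is needed for caveolae to form in mammals, cavin-2 binds it and helps to shape the membrane, and CAV3 and CAVIN4 belong to the muscle form of the coat. Loss of CAV1 or CAVIN1 causes lipodystrophy in mammals.

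Libraries held between 13255169 and 14168807 reads assigned to genes. KLF2 itself had normalized counts of 1052, 1618 and 2412 in KLF2 1 to 3, against 1093, 675 and 697 in EV 1 to 3, so the groups overlapped (log2 fold change 1.00, SE 0.31; adjusted p = 0.962 in limma). It passed without both EV 1 and KLF2 3, which ended that overlap by construction (0.93, adjusted p = 0.0184 in limma), and with a score for the small chromosomes as a covariate, an alternative added once the data had been seen (1.31, adjusted p = 8.23e-08 in limma). KLF2 lies on chromosome 28 and was among the genes of that score, so the fit with the score is a description only. EV 1 and KLF2 3 stood apart at one end, and KLF2 1 at the other, on the first principal component, which held 67.1% of the variance over 10889 genes with the caveolin and cavin genes left out. Of 12 preadipocyte and fibroblast markers found, 10 had a mean normalized count of at least 20, among them COL1A1, PDGFRA and vimentin (VIM), while CD34 and DLK1 were near 0. Of 10 striated muscle markers 1 reached that level, the desmin gene DES was at 0 in all EV libraries, and the summed count of the list was 48.7 to 90.8 in KLF2 and 52.0 to 80.9 in EV libraries. Endothelial markers summed to 986 to 1185 in KLF2 and 1019 to 1283 in EV libraries, most of it from ERG, a transcription factor. At a mean of at least 20 stood 5 of 8 endothelial, 5 of 6 leukocyte and 4 of 6 smooth muscle markers. The adipocyte list had 3 of 7 and the epithelial list 0 of 4 at that level. This count alone does not tell preadipocytes from other cell types. Preadipocyte and fibroblast markers summed to 165285 to 180584 in KLF2 and 176843 to 194719 in EV libraries. Most of this sum came from VIM, with 88810 to 111996 in KLF2 and 101319 to 110187 in EV libraries. In bulk RNA, fewer cells of a type and less RNA per cell cannot be told apart.

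CAV1 was among the most abundant transcripts of these cells. The gene, ENSGALG00010002285, lies on the minus strand of chromosome 1 from 25212408 to 25229141 in the build GRCg7b. It had 32316, 27548 and 27584 normalized counts in KLF2 1 to 3, against 25377, 28181 and 26813 in EV 1 to 3. A single library, KLF2 1, lay above the rest, and the other KLF2 libraries lay between EV 3 and EV 2. By normalized count CAV1 ranked between 9th and 18th of all genes in every library. Per length it ranked 16th, 31st and 40th in KLF2 1 to 3, and 43rd, 31st and 31st in EV 1 to 3.

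CAV2 lies 6223 bases from CAV1 on the same strand of chromosome 1, from 25235364 to 25244372 (ENSGALG00010001517). It had 8837, 8460 and 7436 normalized counts in KLF2 1 to 3, against 6628, 8846 and 8095 in EV 1 to 3. The groups overlapped throughout: the highest and the lowest value were both EV libraries.

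PTRF, the cavin-1 gene, varied far more than the others. It is ENSGALG00010021165 on chromosome 27, from 4911093 to 4928429 on the minus strand. It had 2299, 3713 and 6303 normalized counts in KLF2 1 to 3, against 7237, 4887 and 4445 in EV 1 to 3. The highest library held 3.15 times as much as the lowest, and KLF2 3 lay above EV 2 and EV 3. The same ratio was 1.27 for CAV1, 1.33 for CAV2 and 1.20 for ENSGALG00010010796.

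ENSGALG00010010796, the cavin-2 match, lies on the minus strand of chromosome 7 from 7799116 to 7808450. The RefSeq table of the same build places a gene named PRKCDBP at this position, which is the older symbol of CAVIN3, so the 2 annotations name different cavins. Its protein-coding neighbours in that table are NABP1 and TMEFF2, which flank CAVIN2 in the human genome. RefSeq also lists LOC107053801 across this stretch, and with no strand given for the reads, any that come from it cannot be told apart. The gene had 21756, 23371 and 25060 normalized counts in KLF2 1 to 3, against 22991, 26057 and 25545 in EV 1 to 3. It ranked between 17th and 26th by normalized count, close behind CAV1.

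**Figure D1:**
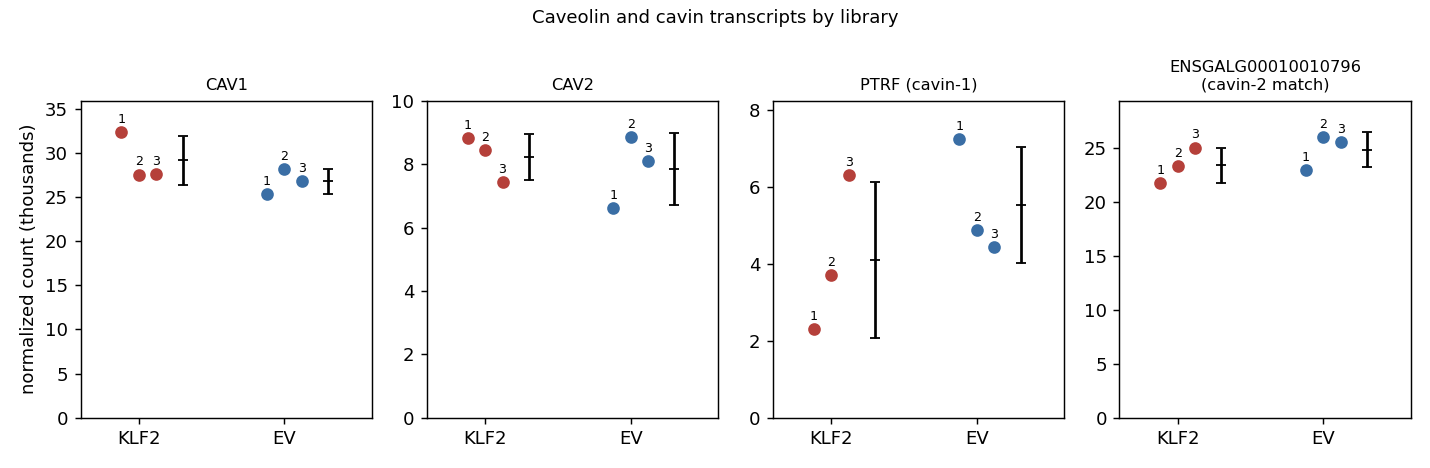
Normalized count (in units of 1000) of the 4 caveolin and cavin genes in each library, KLF2 left and EV right. Numbers beside the points are replicate numbers, and black marks are means with SD (n = 3 wells). The groups overlap for all 4 genes, and PTRF spreads from 2299 to 7237 while the others stay within 1.33-fold.

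Compared per length of the gene model, the order of levels was CAV1, ENSGALG00010010796, CAV2 and PTRF, and no library of one gene reached the range of the next. CAV1 had an RPKM (reads per kilobase of gene, scaled to the library total) of 716 ± 67.3 in the KLF2 group and 664 ± 26.8 in the EV group (SD, n = 3 each). ENSGALG00010010796 had an RPKM of 556 ± 41.6 in the KLF2 group and 596 ± 34.0 in the EV group. CAV2 had an RPKM of 257, 245 and 218 in KLF2 1 to 3, against 197, 257 and 239 in EV 1 to 3. PTRF had an RPKM of 42.9 ± 21.4 in the KLF2 group and 58.2 ± 16.3 in the EV group (SD, n = 3 each). Its place among all genes ran from 819th in EV 1 to 3004th in KLF2 1. The deposited length of PTRF, 7037 bases, is more than that of CAV1, 2987 bases, and a gene model longer than the transcript made in these cells lowers such a value. For scale, the clathrin heavy chain CLTC, which builds the other main endocytic coat, had an RPKM of 70.9 ± 13.1 in the KLF2 group and 68.4 ± 2.80 in the EV group (SD, n = 3 each). Another gene of the clathrin route, AP2M1, stood above CAV2, with 432 ± 49.0 in the KLF2 group and 464 ± 64.0 in the EV group.

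**Figure D2:**
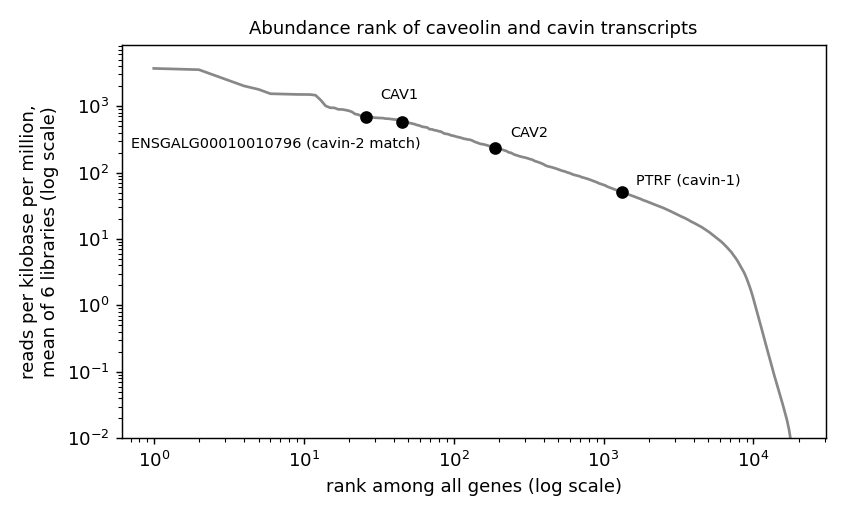
Mean RPKM over the 6 libraries (vertical, log scale) against rank among 18495 genes (horizontal, log scale), with the caveolin and cavin genes marked. CAV1 stands at rank 26, ENSGALG00010010796 at rank 45, CAV2 at rank 190 and PTRF at rank 1328.

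Between KLF2 and EV libraries none of the 4 genes passed a test. In limma 0 of 16765 tested genes passed an adjusted p of 0.05 (0%), and 354 had an unadjusted p under 0.05 (2.11%), with 0 of the 4 caveolin and cavin genes among them. edgeR called 0 of 11860 genes (150 at an unadjusted p under 0.05) and DESeq2 0 of 18492 (173). The share of tested genes whose groups did not overlap was 6.65%, and the groups overlapped for all 4.

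CAV1 had a log2 fold change of 0.12 (SE 0.13, adjusted p = 0.962 in limma), and the 95% interval of the fold ran from 0.891 to 1.32. For CAV2 the log2 fold change was 0.076 (SE 0.15, adjusted p = 0.966 in limma), with an interval of 0.844 to 1.32 for the fold. Its sign turned without EV 1 (-0.041). ENSGALG00010010796 had -0.088 (SE 0.13, adjusted p = 0.962 in limma) and an interval of 0.773 to 1.15. These 3 intervals leave out a change of 1.5-fold in either direction in RNA of whole wells. With the share of cells that took up plasmid not given, they do not bound the change in transfected cells.

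PTRF had a log2 fold change of -0.52 (SE 0.38, adjusted p = 0.962 in limma), and its interval, 0.369 to 1.33 for the fold, is wide. The value was -0.16 without KLF2 1 and -0.89 without KLF2 3, so each of these libraries moved it by close to the standard error. Within the KLF2 group PTRF was lowest in KLF2 1 and highest in KLF2 3, as was KLF2 itself (1052 and 2412 normalized counts). In the EV group both genes were highest in EV 1. The first principal component had the same extremes: -42.4 in KLF2 1, 27.1 in KLF2 3 and 38.5 in EV 1. Both genes lie on small chromosomes, PTRF on 27 and KLF2 on 28. Over all 6 libraries, 358 of 10892 other genes ran in exactly the order of PTRF. A relation between PTRF and KLF2 was not tested. Exact two-sided permutation tests gave p = 0.3 for CAV1, 0.7 for CAV2, 0.4 for PTRF and 0.3 for ENSGALG00010010796, where 3 against 3 cannot go below 0.1. In the authors' deposited table the log2 fold changes were 0.12, 0.070, -0.43 and -0.088 in the same order of genes, each with an adjusted p of 0.9999.

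**Figure D3:**
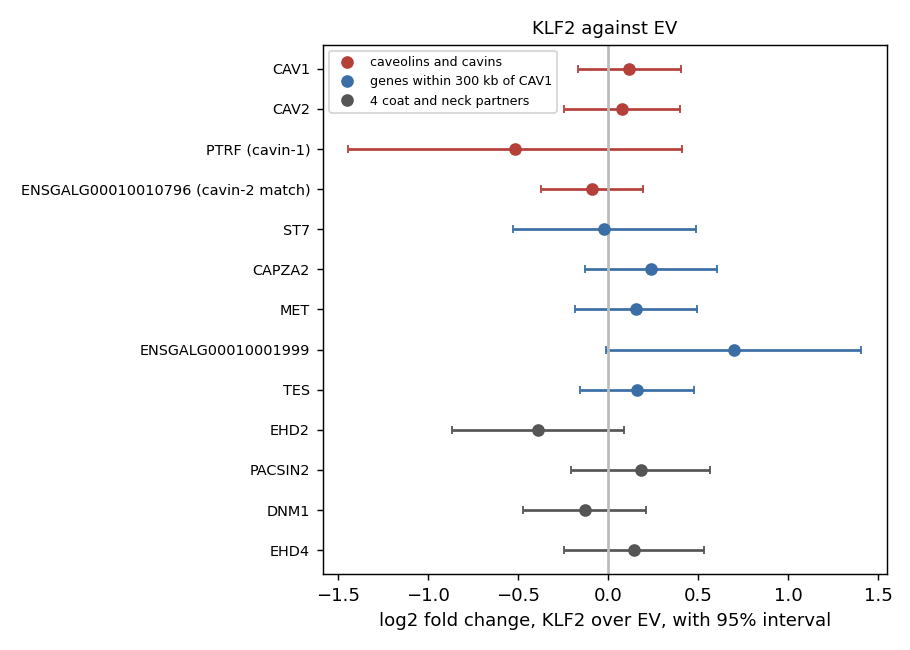
Log2 fold change of KLF2 over EV (horizontal) with the 95% limma interval for the 4 caveolin and cavin genes, the 5 named genes within 300 kb of CAV1 with a mean of at least 20, and 4 coat and neck partners. Every interval includes 0; that of PTRF is the widest, from -1.44 to 0.41.

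The spread between wells was wider than counting error. The lowest library of PTRF held 2264 reads, for which counting alone gives an error of 2.10%, while the coefficient of variation between wells was 49.5% in KLF2 and 27.2% in EV libraries. For CAV1 it was 9.41% in KLF2 and 5.23% in EV libraries, at a counting error of at most 0.623%. The within-group SD of the log2 values was 0.58 for PTRF, and 1.79% of the 3464 tested genes with a mean of at least 1000 had a larger one. It was 0.11 for CAV1, 0.18 for CAV2 and 0.10 for ENSGALG00010010796, beside a median of 0.18 over those 3464 genes. The caveolins and the cavin-2 match were thus at or below the usual spread for their level, and PTRF was near its upper end.

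The composition of the coat transcripts was followed as the ratio to CAV1 within each library, which does not depend on scaling between libraries. Such a ratio keeps any other difference between libraries that does not fall on both genes alike. Per kilobase, PTRF over CAV1 was 0.0302, 0.0572 and 0.0970 in KLF2 1 to 3, against 0.121, 0.0736 and 0.0704 in EV 1 to 3. KLF2 3 lay among the EV libraries. The mean log2 ratio was -2.94 ± 0.84 in the KLF2 group and -2.31 ± 0.43 in the EV group (SD, n = 3 each; difference -0.63, exact permutation p = 0.4, adjusted p = 0.6 over 3 ratios).

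ENSGALG00010010796 over CAV1 was 0.651, 0.820 and 0.879 per kilobase in KLF2 1 to 3, against 0.876, 0.894 and 0.921 in EV 1 to 3. The 3 EV ratios were close together and KLF2 1 and KLF2 2 lay below them, while KLF2 3 lay just above EV 1. The difference of the mean log2 ratio was -0.21 (exact permutation p = 0.2, adjusted p = 0.6). CAV2 over CAV1 had the narrowest range of the 3 ratios over all 6 libraries, with 0.324, 0.364 and 0.320 per kilobase in KLF2 1 to 3, against 0.310, 0.372 and 0.358 in EV 1 to 3, and a log2 difference of -0.043 (exact permutation p = 0.9, adjusted p = 0.9).

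PTRF followed the main axis of differences between libraries. From lowest to highest its libraries ran KLF2 1, KLF2 2, EV 3, EV 2, KLF2 3 and EV 1. Scores on the first principal component were -42.4, -15.6 and 27.1 in KLF2 1 to 3, against 38.5, -5.52 and -1.998 in EV 1 to 3, the same order except for EV 2 and EV 3. The 170 other genes of chromosome 27 with a mean of at least 20 had a median deviation from their own mean of -0.30, -0.13 and 0.17 in KLF2 1 to 3, against 0.34, -0.018 and -0.039 in EV 1 to 3 (log2). PTRF deviated by -0.97, -0.28 and 0.48 in the KLF2 libraries, against 0.68, 0.11 and -0.022 in the EV libraries, in the same sense as the chromosome in all but EV 2 and by a wider margin in all but EV 3. Of those 170 genes 21 had a wider range over the libraries than PTRF, and 13 ran in exactly its order. With a score for the small chromosomes as a covariate, an alternative added once the data had been seen, PTRF had a log2 fold change of -0.17 (adjusted p = 0.998 in limma). That score was computed from these same libraries with PTRF among its genes, so the fit is a description only. The part of this axis in the PTRF values was not tested.

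**Figure D4:**
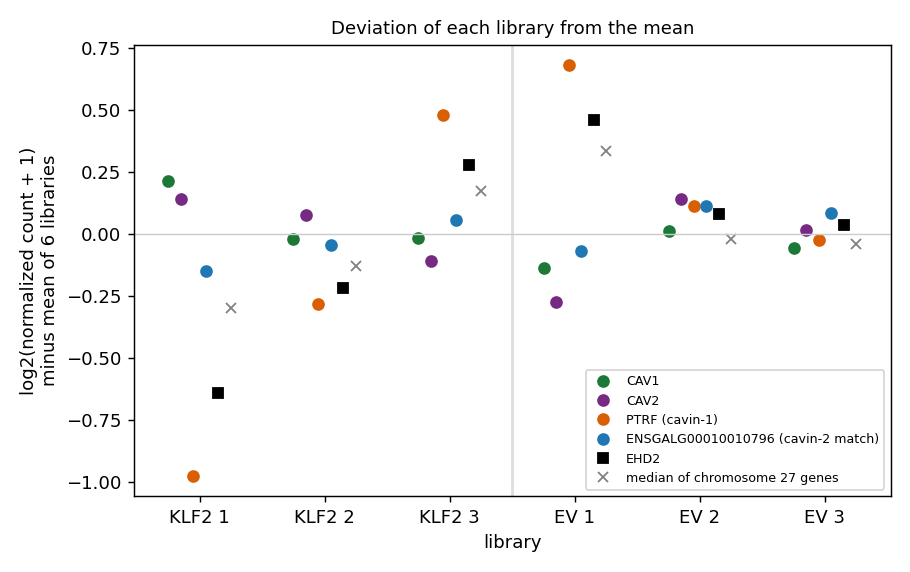
Deviation of log2(normalized count + 1) from the mean of 6 libraries (vertical) in each library (horizontal, KLF2 left, EV right) for the caveolin and cavin genes, for EHD2 and for the median of 170 other chromosome 27 genes. PTRF ranges from -0.97 in KLF2 1 to 0.68 in EV 1, EHD2 runs in the same order, and the other 3 genes stay between -0.27 and 0.21.

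Likeness of pattern was measured as the root-mean-square difference of centred log2 values over the 6 libraries, a description only. For CAV1 the nearest protein-coding genes were SLC30A5 (0.015), ZNF652 (0.023, on chromosome 27 as PTRF is), SUCLG2 (0.025) and SPRY2 (0.026). The median over 10892 genes was 0.22. CAV2 stood at 0.10 from CAV1, at position 980 of those genes, ENSGALG00010010796 at 0.17 and position 3724, and PTRF at 0.63 and position 10256. CAV1 and CAV2, neighbouring genes on 1 chromosome, were thus closer to each other than either was to a cavin. Many genes elsewhere were closer still: from CAV2, CAV1 stood at position 1295. EHD3 on chromosome 3 was 0.089 from CAV1. The measure also grows with the range of a gene, which was wide for PTRF.

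The genes nearest to CAV2 were PLAG1, PPP2CA, GNG10 and ATXN3, at 0.023 to 0.026. Those nearest to PTRF were MSL1 (0.066) on chromosome 27, ST6GALNAC4 on chromosome 17, SYDE1 on chromosome 30 and TMCO1 (0.076) on chromosome 8. ENSGALG00010010796 had EFNA5, PDIA5, VWA8 and SEC23B nearest, at 0.034 to 0.039.

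A list of caveolar coat and neck partners also held genes such as ROR1 and ARF6. Of 13 listed genes 9 were found and tested, with 3 higher and 6 lower in mean in KLF2 libraries. PACSIN1, EHD1, DNM2 and FLNA were not found under those symbols and were not assessed. At an unadjusted p under 0.05 there were 0, where the background is 2.11%. The median log2 fold change was -0.083, beside -0.0060 over all tested genes, of which 8229 were higher and 8536 lower in mean. EHD2, the ATPase that forms a ring at the neck and holds caveolae at the surface, had 2960, 3970 and 5592 normalized counts in KLF2 1 to 3, against 6355, 4888 and 4737 in EV 1 to 3. These 6 libraries ran in exactly the order of PTRF, as they did for 358 of 10892 genes. EHD2 was nearer to PTRF than all but 2.34% of genes, and it lies on chromosome 38, also a small chromosome. It was singled out after its values were seen, with a log2 fold change of -0.39 (SE 0.22, adjusted p = 0.962 in limma).

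PACSIN2, a membrane-bending protein of the caveolar neck, ran the other way, with 4177, 3643 and 2722 normalized counts in KLF2 1 to 3, against 2551, 3263 and 3412 in EV 1 to 3. The groups overlapped and the log2 fold change was 0.18 (SE 0.18). EHD3, a relative of EHD2, had the highest count of the list and scarcely varied, with 11695 to 12999 in KLF2 and 12233 to 12962 in EV libraries. DNM1, a dynamin that cuts vesicle necks, had a log2 fold change of -0.13 (SE 0.16), and EHD4 had 0.15 (SE 0.18).

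Of 18 signalling proteins known at caveolae, 15 were tested, with 7 higher and 8 lower. GRB7, NOS1 and NOS3 were not found under those symbols. With 0 at an unadjusted p under 0.05 (background 2.11%), the median was -0.013. SRC, the kinase that phosphorylates caveolin-1, averaged 385 ± 134 normalized counts in the KLF2 group and 496 ± 155 in the EV group (SD, n = 3 each). ABL1, another kinase of caveolin-1, averaged 3301 ± 452 in the KLF2 group and 3879 ± 849 in the EV group, and the receptor TGFBR1 averaged 1202 ± 255 in the KLF2 group and 1029 ± 120 in the EV group (SD, n = 3 each). The kinase YES1 had a log2 fold change of 0.11 (SE 0.15). All of these groups overlapped. The insulin receptor INSR, which is concentrated in caveolae of fat cells, averaged 191 in the KLF2 group and 212 in the EV group, and the fatty acid receptor CD36 was near the floor with 2.25 in the KLF2 group and 1.66 in the EV group.

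Genes of caveolin turnover numbered 10 tested of 11, with 4 higher and 6 lower. At an unadjusted p under 0.05 there were 0 (background 2.11%), and the median was -0.079. The ubiquitin-binding adaptors ANKRD13B and ANKRD13D, of a family that acts on caveolin-1 degradation, had log2 fold changes of -0.89 (SE 0.54) and -0.43 (SE 0.27). The sorting protein HGS had -0.32 (SE 0.26) and the early endosome GTPase RAB5A 0.16 (SE 0.18). RAB7A of this list had 4623, 4367 and 4604 normalized counts in KLF2 1 to 3, against 4141, 4321 and 4262 in EV 1 to 3. Every KLF2 library thus lay above every EV library, as for 3.39% of tested genes. Its log2 fold change was 0.095 (SE 0.13, adjusted p = 0.962 in limma). Raft scaffolds and cholesterol genes numbered 12 tested of 14, with 6 higher and 6 lower. Here 0 had an unadjusted p under 0.05 (background 2.11%), and the median was 0.00225. SMPD1, the acid sphingomyelinase, had -0.54 (SE 0.29), SREBF2, the regulator of cholesterol synthesis, -0.28 (SE 0.19), ERLIN2 0.20 (SE 0.15) and the membrane scaffold STOM 0.18 (SE 0.15).

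Clathrin coat and adaptor genes, set beside as the other endocytic route, numbered 17 tested of 20, with 9 higher and 8 lower in mean. The median was 0.00796, and 1 gene had an unadjusted p under 0.05, where the background is 2.11%. That gene was FCHO1, which starts clathrin pits, and it averaged 151 ± 33.4 normalized counts in the KLF2 group and 231 ± 65.1 in the EV group (SD, n = 3 each). Its log2 fold change was -0.59 (SE 0.26, adjusted p = 0.962 in limma), and its groups overlapped. AAK1, a kinase of the adaptor complex, had 2745, 2922 and 2712 normalized counts in KLF2 1 to 3, against 3450, 3127 and 3222 in EV 1 to 3, so that every KLF2 library lay below every EV library, as for 3.26% of tested genes. Its log2 fold change was -0.23 (SE 0.13, adjusted p = 0.962 in limma). HIP1 had a log2 fold change of -0.59 (SE 0.31) and FCHO2 0.31 (SE 0.20), with overlap.

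The neighbourhood of CAV1 held 11 other listed genes within 300 kb, among them CAV2 and a locus with no name or gene type. The actin-capping gene CAPZA2, the receptor kinase gene MET and the focal adhesion gene TES had log2 fold changes of 0.24 (SE 0.17), 0.15 (SE 0.16) and 0.16 (SE 0.15), all on the same side as CAV1, and ST7 had -0.019. At low counts, TFEC had 0.074, ENSGALG00010001492 0.12 and ENSGALG00010002001 0.093, while ENSGALG00010002002 had -0.12 and the locus with no name -0.16. In each of CAV1, CAPZA2, MET and TES the highest library was KLF2 1 and the lowest EV 1. The median of 1345 other chromosome 1 genes was also highest in KLF2 1 and lowest in EV 1, at 0.055 and -0.089 on the log2 scale. ENSGALG00010001999, a long non-coding RNA gene 19382 bases from CAV1 on the same strand, had 40.6, 50.7 and 47.8 normalized counts in KLF2 1 to 3, against 23.7, 26.5 and 35.4 in EV 1 to 3. All KLF2 libraries lay above all EV libraries, as for 3.39% of tested genes. Its log2 fold change was 0.70 (SE 0.33; unadjusted p = 0.053, adjusted p = 0.962 in limma; exact permutation p = 0.1, the smallest possible). With a mean RPKM of 0.760 in the KLF2 group and 0.472 in the EV group, its level was far under that of CAV1.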

How the data were processed

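Poly(A)-selected RNA of 3 KLF2 and 3 EV wells was sequenced. The submitters' processing notes name GRCg7b as the build and list featureCounts 1.5.0-p3, HISAT2 2.0.5, StringTie 1.3.3b and fastp as tools. The software behind the normalization and tests was not given in the sources used here. Each signal deposited by the authors is a normalized count, and every value was a whole multiple of the smallest nonzero value of its library (100% of values, tolerance 1e-06), which gave back the reads. Per the file headers, columns for the log2 fold change, the p-value and its adjusted form came from the authors.

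The design called for robust limma-trend (limma 3.58.1, R 4.3.3) on log2(normalized count + 1), two-sided, over the 16765 genes averaging at least 1 in a group, Benjamini-Hochberg adjusted over all of them with a threshold of 0.05. Fold changes on this scale understate changes of low genes. Levels per length are RPKM values computed from the recovered reads, the deposited gene length and the library total. edgeR 4.0.16 and DESeq2 1.42.0 ran on the recovered reads as alternatives. DESeq2 gave the deposited log2 fold changes again: CAV1 0.122, CAV2 0.0695, PTRF -0.428 and ENSGALG00010010796 -0.0878. The DESeq2 fit and the authors' values are therefore not separate results. The limma fit was tried on simulated counts, which were drawn without the main axis of differences between these libraries.

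The members, lists and tests were chosen with earlier results of these data known. Named genes were the listed symbols and up to 4 lowest-p genes per related list with a mean of at least 20. Genes within 300 kb of CAV1 and the 4 most alike per member were also named. EHD3, ROR1, ARF6, CLTC, AP2M1, RAB7A, INSR, CD36 and the markers were named after their values were seen. PTRF and ENSGALG00010010796 entered by older symbol and by deposited protein match. The small-chromosome score subtracts the median deviation on chromosomes 1 to 5 and Z from that on chromosomes 11 to 28 and 30 to 38. Lists were matched by exact symbol, so a listed gene that stood under another name was missed.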

Additional observations from a re-analysis of the deposited data

How the results depend on the processing

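Of 68 fold changes of the 4 caveolin and cavin genes under alternatives, 66 kept their sign and side of the threshold. CAV2 turned to -0.034 with the small-chromosome score. Leaving out libraries one at a time gave CAV2 -0.041 to 0.17, PTRF -0.89 to -0.16 (adjusted p 0.337 to 1.00 in limma), CAV2 over CAV1 -0.12 to 0.011 and ST7 -0.058 to 0.022. ST7 was also 0.092 under quantile normalization and 0.0014 with the score, and -0.062 without both EV 1 and KLF2 3. With the score EHD4 was -0.015 and RAB5A -0.0091. Genes past the threshold numbered 4 without both EV 1 and KLF2 3 and 2 with the score. KLF2 itself passed under both, with log2 fold changes of 0.93 and 1.31, the latter with KLF2 among the genes of the score. Genes at an unadjusted p under 0.05 numbered 150 in edgeR, 173 in DESeq2, 122 at a mean of at least 20, 1712 without both libraries, 581 with the score and 235 (without KLF2 1) to 2081 (without KLF2 3) when each was left out. Without EV 1 and KLF2 3, 10.0% of all tested genes were at that level. The lists had 2 of 9 neck partner, 2 of 15 signalling and 5 of 10 turnover genes there. Raft genes numbered 4 of 12 and clathrin genes 2 of 17. Both libraries left out lay at one end of the first principal component. The KLF2 libraries kept, at -42.4 and -15.6, lay below the EV libraries kept, at -5.52 and -1.998. Group and axis thus cannot be told apart in that fit, and these list counts cannot be read as a difference due to KLF2. Whether list genes share that axis was not tested. Non-overlapping genes numbered 639 at a mean of at least 20, against 1115. Median ranks per kilobase were 31 for CAV1, 176 for CAV2, 1377 for PTRF and 50 for ENSGALG00010010796, beside 16, 210.5, 512.5 and 22 by count. In the fit with a replicate block, 0 genes passed and 228 had an unadjusted p under 0.05. Same-numbered libraries had residual correlations of -0.600, 0.144 and -0.511. These show no pairing by number, though so few values cannot exclude one. The cause of these differences was not tested. Low counts limit ENSGALG00010001999, ANKRD13B and CD36.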
